A study of Mus musculus with 9 samples.

Results

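The genes followed here encode the machinery for removing the mRNA cap, shortening the poly(A) tail through PAN2-PAN3 and degrading RNA from the 5′ end, and were measured across 9 mouse embryos. The set consisted of the 10 genes Dcp2, Dcp1a, Dcp1b, Edc3, Edc4, Ddx6, Patl1, Xrn1, Pan2 and Pan3, matched by symbol to 10 of the 57010 Ensembl genes of the table of read counts. RNA was sequenced from the microdissected cortex of single embryos at E12.5, with 3 embryos in each of 3 groups. Ctrl embryos carry the genotype label WT and were not described further. In Cnot3 cKO embryos, floxed Cnot3 (Cnot3 lox/lox) was deleted by Emx1-Cre, a recombinase active in radial glial cells (RGCs) of the dorsal telencephalon and in the intermediate progenitors and neurons they give rise to. In dcKO embryos, the same Cre acted on both Cnot3 lox/lox and Trp53 lox/lox. Cells outside the Emx1-Cre lineage, such as blood, vessel and meningeal cells, keep both genes in this model. The study compared gene expression of both mutants with that of controls, and the comparison is read here for these 10 genes.

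CNOT3 is a subunit of CCR4-NOT, the main complex that shortens poly(A) tails in the cytoplasm. PAN2-PAN3 trims long tails first, and CCR4-NOT takes over from it. An mRNA whose tail has been shortened is bound by the LSM1-7 ring and PATL1, and the helicase DDX6, which docks on the CNOT1 scaffold of CCR4-NOT, links it to translational repression and decapping. DCP2 then removes the 5′ cap with the help of DCP1 and the EDC proteins, and the exonuclease XRN1 degrades the body of the RNA. Several of these proteins gather in cytoplasmic P-bodies.

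All 10 genes had more than 10 reads in every embryo and were among the 13680 genes tested. Total reads ranged from 21193798 to 45073349 per embryo, and the 10 genes together took 20067 to 55239 of them. Cnot3 measured 2756 to 3291 normalized counts in Ctrl and 408 to 484 in cKO, and 206, 1353 and 534 in dcKO replicates 1, 2 and 3. Trp53 measured 6029 to 7123 in Ctrl and 4612 to 4693 in cKO, and 423, 3098 and 579 in dcKO. The library labelled dcKO replicate 2 therefore stood apart, with 44.9% of the Ctrl mean of Cnot3 and 46.9% of that of Trp53. It also had the most reads, the fewest genes detected (18230) and the highest share of mitochondrial transcripts (1.83%, against 0.627% to 1.57% in the other 8 embryos). Markers of dorsal progenitors (7 of 7 genes tested) and of neurons (7 of 7) were read in every group. Their summed levels were 1057 to 1624 and 1026 to 1359 CPM (reads per 1e+06 counted) in Ctrl, 918 to 960 and 772 to 1262 in cKO, and 1162 to 1397 and 567 to 1204 in dcKO. Among markers of cells outside the lineage, the 7 erythroid genes summed to 7006 to 10574 CPM in Ctrl, 9838 to 14787 in cKO and 3897 to 6727 in dcKO. The 5 meningeal genes summed to 724 to 807, 467 to 734 and 284 to 531 CPM, and the 4 endothelial genes to 156 to 213, 174 to 237 and 99.8 to 114 CPM. The 5 genes of the cortical hem and choroid plexus summed to 13.8 to 36.3 CPM in Ctrl, 69.0 to 231 in cKO and 65.8 to 254 in dcKO, with 1 gene at 0 reads in all Ctrl embryos. The 4 microglial genes summed to 25.0 to 32.5, 29.6 to 63.4 and 9.38 to 25.2 CPM, and the 4 genes of intermediate progenitors to 356 to 429, 364 to 440 and 344 to 533 CPM. Of the subpallial markers, Gsx2 was at 2.13 CPM and Nkx2-1 at 0.399 CPM in dcKO replicate 2, and both were at 0 in the other 8 embryos. Dlx1 and Dlx2 were at 1.04 and 1.95 CPM in it, against at most 0.142 and 0.302 in the others. Lhx6 was lower in it than in any other embryo (0.599 CPM, against 0.802 to 4.83), and Dlx5 was at 0.0222 CPM, against 0 to 0.0805. The part of these differences in the results that follow was not tested.

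A dependence on base composition also moved with the groups. When the tested genes were split into quartiles by GC content of their exons, the median log2 ratio to the Ctrl mean was higher in the lowest than in the highest quartile by 0.48 to 0.77 in cKO. The same difference was 1.65 in dcKO replicate 1, 1.98 in dcKO replicate 2 and -0.25 in dcKO replicate 3. It lay between -0.16 and 0.29 in Ctrl. The embryos of dcKO were thus split, with replicates 1 and 2 on one side and replicate 3 on the other. The 10 genes were spread over this range. Xrn1 (41.9% GC), Dcp2 (42.7%) and Ddx6 (43.4%) were in the lowest quartile, and Pan3 (47.1%), Patl1 (47.2%) and Dcp1a (48.3%) in the second. Dcp1b (50.4%), Pan2 (51.2%) and Edc3 (51.6%) were in the third, and only Edc4 (55.5%) was in the highest. Values after a correction for GC content are therefore given beside the normalized counts of several genes. The paper reports that mRNAs with the fewest optimal codons tended to rise most in the mutants. How far the GC dependence overlaps with that relation was not tested. The correction may therefore also take out part of a genotype difference.

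**Figure D1:**
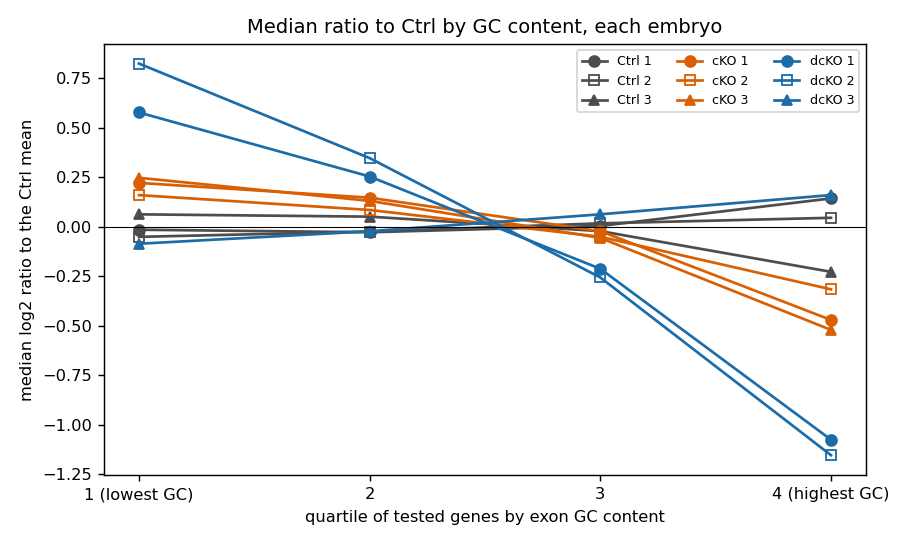
Median log2 ratio to the Ctrl mean (vertical axis) of tested genes in 4 quartiles of exon GC content (horizontal axis), 1 line per embryo (grey Ctrl, orange cKO, blue dcKO, with circle, open square and triangle for replicates 1, 2 and 3). The lines of dcKO replicates 1 and 2 fall from 0.58 and 0.82 in the lowest quartile to -1.08 and -1.15 in the highest, while dcKO replicate 3 runs from -0.09 to 0.16.

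The genes lie on 8 chromosomes, and all are on the plus strand in GENCODE M21 on GRCm38. Chromosome 9 holds 3 of them, Ddx6 (chr9:44604892-44640731), Edc3 (chr9:57708540-57752499) and Xrn1 (chr9:95954760-96057803). Dcp2 lies at chr18:44380502-44424969, Dcp1a at chr14:30479535-30527063 and Dcp1b at chr6:119175253-119221616. Edc4 is at chr8:105880881-105894908, Patl1 at chr19:11912399-11945091, Pan2 at chr10:128303335-128321358 and Pan3 at chr5:147430161-147548502. Each value is a sum over all exons of the gene, so isoforms (2 for Dcp2 and Patl1, up to 23 for Pan3) were not told apart. Annotated exons of Edc3 share 1284 bases with those of Clk3 on the opposite strand, and whether the authors counted by strand is not given in the sources used here. Clk3 had 857 to 1308 reads, and how reads in the shared bases were assigned is not known, so the Edc3 values are uncertain. Dcp1b lies opposite Cacna1c (112 to 201 reads, against 281 to 433 for Dcp1b) and Dcp1a opposite Cacna1d (10 to 69 reads). Their annotated exons share 0 bases, but reads from introns of these genes could not be told apart from those of Dcp1b and Dcp1a without strand. A processed pseudogene, Gm13410, matches Ddx6 at 94.5% over 1218 bases but held only 1 to 10 reads, against 5023 to 25760 for Ddx6. Another, CR555305.1, matches Dcp1a at 92.3% over 904 bases and had 0 reads. Exons of Edc4 share 458 bases with Nrn1l on the same strand, which had 0 reads. Exons of Xrn1 share 184 bases with the antisense gene Gm16794 (0 to 52 reads) and 604 with the antisense gene C78334 (0 reads).

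Per kilobase of exon, the helicase was the most abundant of the 10 transcripts and the PAN3 adaptor the least. In Ctrl, Ddx6 measured 52.9 ± 0.30 RPKM (normalized reads per kilobase of exon and per 1e+06 reads, SD, n = 3), at percentile 91.9 of all tested genes. A group of 4 genes followed, Dcp2 (17.3 ± 1.30 RPKM), Edc4 (16.8 ± 1.88), Patl1 (16.5 ± 0.86) and Edc3 (14.7 ± 1.78). Each of these overlapped its neighbour in the order, so their ranks are not separated by the spread between embryos. Pan2 (9.04 ± 0.40 RPKM) and Dcp1a (8.59 ± 0.20) came next, with Ctrl ranges of 8.78 to 9.51 and 8.38 to 8.77 that did not quite meet. Xrn1 (2.82 ± 0.27 RPKM), Dcp1b (2.34 ± 0.51) and Pan3 (1.81 ± 0.08) were lowest, and the ranges of neighbours overlapped again. The median tested gene had 6.28 RPKM. Of the 2 DCP1 paralogues, Dcp1a was thus the more abundant in all 3 Ctrl embryos, and of the 2 PAN subunits, the catalytic one was. These levels divide by the length of all annotated exons (18585 bases for Xrn1 and 14955 for Pan3, among the longest), and a shorter expressed isoform would raise them.

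**Figure D2:**
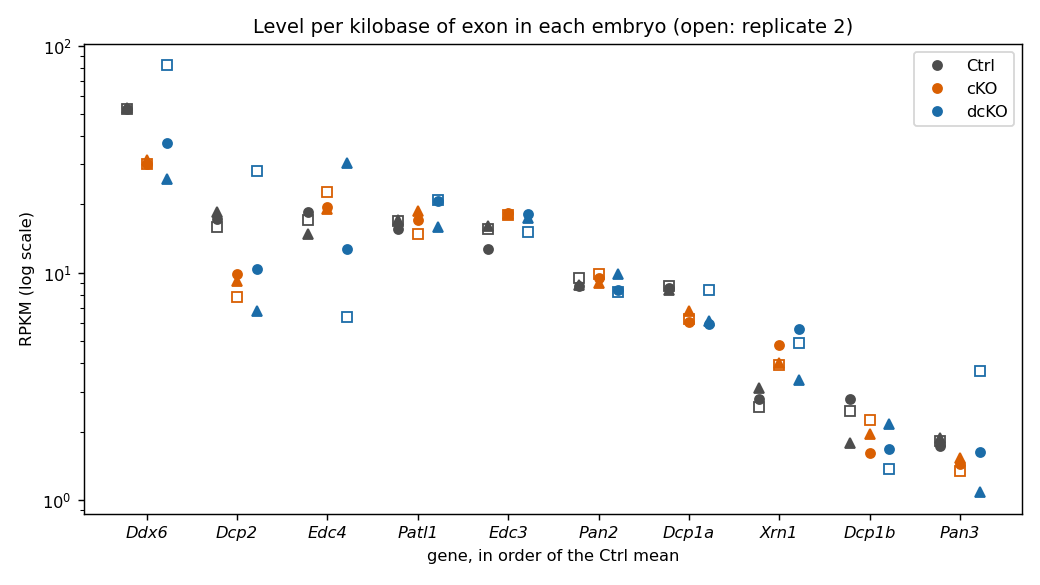
RPKM of the 10 genes on a log axis, ordered by the Ctrl mean, with 1 point per embryo (grey Ctrl, orange cKO, blue dcKO, open squares replicate 2). Ddx6 stands above the other 9 genes in every Ctrl embryo (52.7 to 53.3), and the dcKO points of Ddx6, Dcp2, Edc4 and Pan3 are the most spread.

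The start of transcription is shown for 4 genes, 2 that were lower in every cKO embryo (Dcp1a and Pan3) and 2 that were higher (Xrn1 and Edc3). Each window runs from 250 bases before to 50 bases after the RefSeq start on GRCm38.p6, 5′ to 3′ on the plus strand. They lie at chr14:30479315-30479614 for Dcp1a, chr5:147429906-147430205 for Pan3, chr9:95954510-95954809 for Xrn1 and chr9:57708319-57708618 for Edc3. Capitals mark matches, on either strand, to the GC box GGGCGG, the box CCAAT, the TATA box TATAAA or the ETS core CCGGAA. None of these motifs overlapped another.
Dcp1a: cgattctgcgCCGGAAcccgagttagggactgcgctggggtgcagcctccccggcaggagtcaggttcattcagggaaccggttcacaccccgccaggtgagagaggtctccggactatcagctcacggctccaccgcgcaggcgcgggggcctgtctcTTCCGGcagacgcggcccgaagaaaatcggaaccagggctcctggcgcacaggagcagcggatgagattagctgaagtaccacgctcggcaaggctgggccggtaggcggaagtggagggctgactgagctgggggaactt
Pan3: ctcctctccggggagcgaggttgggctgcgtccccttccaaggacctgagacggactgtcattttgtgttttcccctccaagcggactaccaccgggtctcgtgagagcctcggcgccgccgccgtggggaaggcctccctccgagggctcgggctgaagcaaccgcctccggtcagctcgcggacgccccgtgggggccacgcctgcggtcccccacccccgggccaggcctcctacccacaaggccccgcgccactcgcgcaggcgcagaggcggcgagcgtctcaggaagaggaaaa
Xrn1: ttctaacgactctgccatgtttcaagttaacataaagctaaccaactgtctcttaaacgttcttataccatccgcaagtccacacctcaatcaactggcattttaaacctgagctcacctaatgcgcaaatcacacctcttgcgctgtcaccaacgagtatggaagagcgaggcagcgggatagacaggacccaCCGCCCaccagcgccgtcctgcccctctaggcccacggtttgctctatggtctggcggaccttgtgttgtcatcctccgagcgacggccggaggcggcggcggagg
Edc3: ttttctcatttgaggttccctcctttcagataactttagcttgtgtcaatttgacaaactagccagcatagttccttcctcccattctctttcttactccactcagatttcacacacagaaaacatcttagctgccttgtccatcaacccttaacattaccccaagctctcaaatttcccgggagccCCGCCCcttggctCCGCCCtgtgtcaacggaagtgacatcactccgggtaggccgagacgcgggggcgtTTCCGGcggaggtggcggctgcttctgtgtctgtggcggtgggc

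The RefSeq table held a window for 8 of the 10 genes. An ETS core was found in 4 of the 8 (Dcp1a, Dcp1b, Edc3 and Edc4), with 2 matches in Dcp1a and 1 in Edc3, and 14.9% of the 32851 windows of all genes hold one. The GC box, present in 35.7% of all windows, was found in 3 of the 8 (Edc3, Xrn1 and Patl1), with 2 matches in Edc3 and 1 in Xrn1. The CCAAT box was also found in 3 (Edc4, Pan2 and Patl1), against 37.4% of all windows. No match of the 4 motifs was found in Pan3, and no TATA box (13.6% of all windows) in any of the 8. All 8 were at or above the median GC content of all windows (52.7%), from 52.7% in Pan2 to 70.7% in Pan3. A match is a description of the letters only.

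In Cnot3 cKO cortices, the catalytic subunit of decapping, 1 of its coactivators, the helicase and the PAN3 adaptor were lower in every cKO embryo than in any Ctrl embryo, while the exonuclease and both EDC scaffolds were higher in every cKO embryo. Ddx6 was at 0.576 and Dcp2 at 0.519 of the Ctrl level in the fit, but neither passed the threshold when all 9 embryos were fitted together. A gene was called at a Benjamini-Hochberg adjusted p under 0.05 and a log2 fold change beyond 1. By edgeR's quasi-likelihood test on the 9 embryos, 0 of the 10 genes were called (0.0146% of all tested genes). The deleted gene Cnot3 missed the threshold in that fit too (log2 fold change -2.78, edgeR adjusted p 0.0509). DESeq2 and limma voom also called 0 of the 10, against 8.83% and 13.7% of all tested genes. At an unadjusted p under 0.05, edgeR gave 1 gene higher (Xrn1, background 15.3%) and 3 lower (Dcp1a, Dcp2 and Ddx6, background 11.7%), and DESeq2 gave 4 in all (30.3% of all genes). At a DESeq2 adjusted p under 0.05 with no limit on the fold there were 0 of the 10, against 16.7% of all genes. By limma voom on the same 9 embryos there were 5 at that adjusted p (Ddx6, Dcp2, Xrn1, Dcp1a and Edc3), against 54.9%. The embryos of cKO and Ctrl did not overlap for 3 genes that were higher (background 29.2%) and 4 that were lower (28.0%). The median log2 fold change was -0.12 over the 10 genes and 0.01 over all tested genes.

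The spread in that fit is shared with the dcKO embryos, which differed strongly from each other. When only the 3 Ctrl and 3 cKO embryos were fitted, 7 of the 10 genes had an adjusted p under 0.05 at any fold change, a threshold combined with that fit after the values were seen. Higher in cKO were 3 genes (Edc3, Edc4 and Xrn1, against 24.0% of all tested genes) and lower were 4 (Dcp1a, Dcp2, Ddx6 and Pan3, against 24.2%). None of the 7 differed by a log2 fold change beyond 1. Adjusted p-values from this fit of 6 embryos are given beside those of the 9 in what follows. Fewer cells of a type and less RNA per cell cannot be told apart in these bulk samples.

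**Figure D3:**
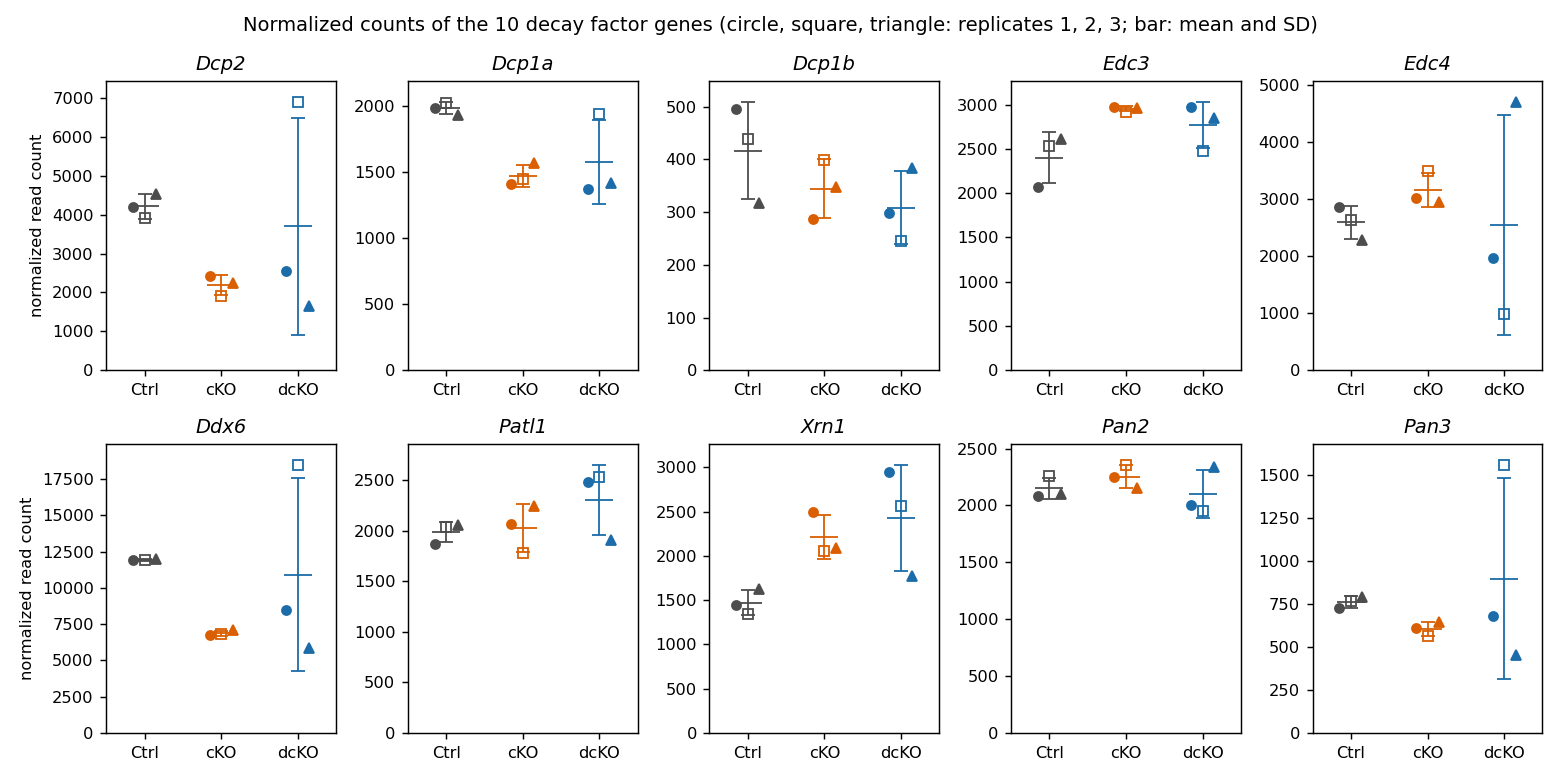
TMM-normalized read counts (vertical axes, from 0) of the 10 genes in each embryo, with circle, open square and triangle for replicates 1, 2 and 3 and bars for the mean and SD of 3 embryos (grey Ctrl, orange cKO, blue dcKO). The 3 cKO points lie below all Ctrl points for Dcp2, Dcp1a, Ddx6 and Pan3 and above them for Edc3, Edc4 and Xrn1, and dcKO replicate 2 lies above all Ctrl points for Dcp2, Ddx6 and Pan3.

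Among the decapping enzymes, Dcp2, the NUDIX hydrolase that cuts the cap, measured 4199, 3904 and 4539 normalized counts in the Ctrl embryos and 2409, 1911 and 2244 in the cKO embryos. The groups did not overlap, and the highest cKO value was well below the lowest Ctrl value. Its log2 fold change was -0.95 (SE 0.42, 95% interval -1.88 to -0.01), with an edgeR adjusted p of 0.181 in the 9 embryos and 0.000105 in the 6. Dcp1a, the DCP1 coactivator with the higher level here, measured 1989, 2026 and 1937 in Ctrl and 1409, 1447 and 1567 in cKO. All cKO embryos were again below all Ctrl embryos, with a log2 fold change of -0.43 (SE 0.18) and adjusted p-values of 0.157 and 0.00304 in the fits of 9 and 6. After the GC correction the Dcp1a difference was -0.56 (SE 0.15, adjusted p 0.0444 in the 9 by edgeR). Its paralogue Dcp1b measured 495, 438 and 317 in Ctrl and 288, 400 and 347 in cKO. Those groups overlapped, and the log2 fold change of -0.27 had a 95% interval of -0.90 to 0.35. It ranged from -0.13 without Ctrl replicate 1 to -0.44 without Ctrl replicate 3, and was -0.16 without cKO replicate 1.

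The EDC scaffolds went the other way. Edc3, which binds the DCP1-DCP2 pair and DDX6, measured 2070, 2527 and 2607 normalized counts in Ctrl and 2972, 2919 and 2963 in cKO. The cKO embryos were nearly equal to each other and above all Ctrl embryos, by a log2 fold change of 0.30 (SE 0.15). Its edgeR adjusted p was 0.244 in the 9 embryos and 0.0297 in the 6. Edc4, the large scaffold that joins DCP2 to DCP1, measured 2858, 2640 and 2285 in Ctrl and 3021, 3494 and 2950 in cKO. The groups were separate by a small margin, with a log2 fold change of 0.28 (SE 0.43) and adjusted p-values of 0.707 and 0.0484. After the GC correction the Edc4 difference was 0.53 (SE 0.25, adjusted p 0.158 in the 9 embryos by edgeR).

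Relative to the mean, Ddx6, the DEAD-box helicase, had the tightest Ctrl group of the 10 genes on normalized counts. The Ctrl embryos measured 11892, 11899 and 12012 normalized counts and the cKO embryos 6767, 6806 and 7064. The distance between the groups was many times the spread within either of them. The log2 fold change was -0.79 (SE 0.34, 95% interval -1.56 to -0.03), and the edgeR adjusted p was 0.172 in the 9 embryos and 4.49e-05 in the 6. The GC correction raised the Ctrl mean of Ddx6 from 11934 to 14069 and its SD from 67.3 to 735. The cKO mean changed from 6879 to 6765. With the correction, Ddx6 was at -1.06 (adjusted p 0.0323) and Dcp2 at -1.21 (adjusted p 0.0349) in the edgeR fit of 9 embryos. Both were then past the threshold, as were 4.47% of all tested genes. With replicate number added to that fit, neither passed (edgeR adjusted p 0.0718 for Ddx6 and 0.0732 for Dcp2). Patl1, the bridge from the LSM1-7 ring to DDX6 and decapping, measured 1871, 2040 and 2059 in Ctrl and 2066, 1781 and 2252 in cKO. Its groups overlapped fully, and the log2 fold change of 0.03 had a 95% interval of -0.35 to 0.41. With the GC correction it was -0.14.

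Xrn1, the 5′-3′ exoribonuclease that degrades decapped RNA, measured 1447, 1339 and 1621 normalized counts in Ctrl and 2499, 2057 and 2088 in cKO. Every cKO embryo was above every Ctrl embryo, by a log2 fold change of 0.59 (SE 0.21, 95% interval 0.13 to 1.05). The edgeR adjusted p was 0.108 in the 9 embryos and 0.0018 in the 6. Xrn1 has the lowest GC content of the set and lies at percentile 3.96 of tested genes for GC at the last codon position. The GC correction left a difference of 0.33 (SE 0.15, adjusted p 0.136), and the cKO embryos, at 1.41, 1.23 and 1.15 times the Ctrl mean, then still exceeded the highest Ctrl embryo, at 1.03.

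The 2 subunits of PAN2-PAN3 are given next, and the difference between them was not tested. Pan2, the deadenylase itself, measured 2087, 2260 and 2100 normalized counts in Ctrl and 2252, 2354 and 2154 in cKO. The groups overlapped, and the 95% interval of its log2 fold change of 0.07 was -0.26 to 0.40. Pan3, which tethers PAN2 to poly(A)-bound PABPC, measured 724, 765 and 790 in Ctrl and 607, 561 and 645 in cKO. All cKO embryos were below all Ctrl embryos, with a log2 fold change of -0.33 (SE 0.38) and edgeR adjusted p-values of 0.606 and 0.0494 in the fits of 9 and 6. After the GC correction the Pan3 difference was -0.51 (SE 0.30, adjusted p 0.254 in the 9).

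**Figure D4:**
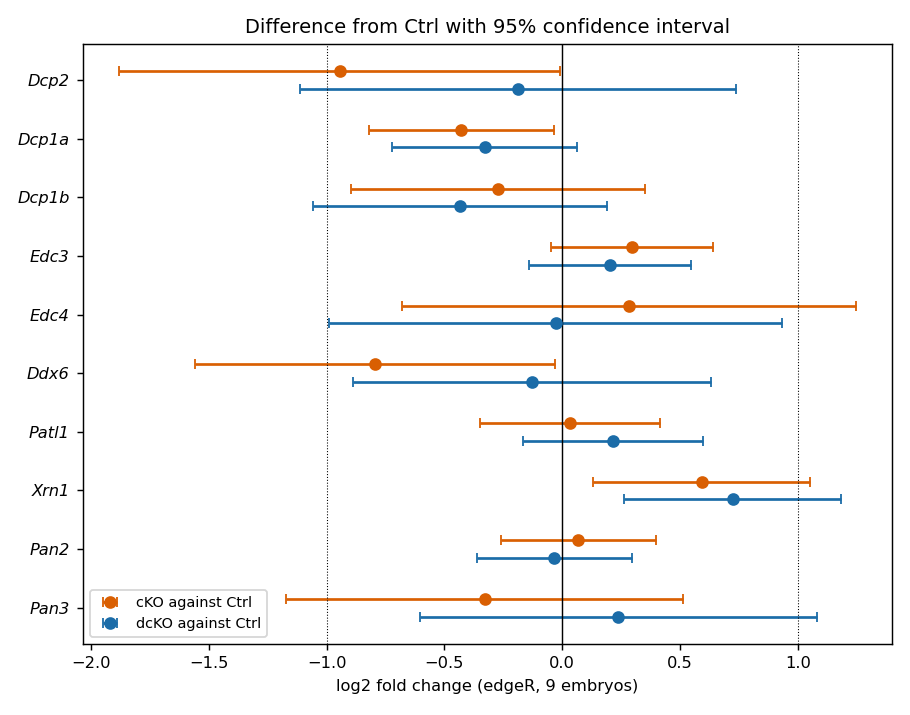
Log2 fold change from Ctrl of the 10 genes in cKO (orange) and dcKO (blue), with 95% confidence intervals from the edgeR fit of 9 embryos. Dotted lines mark a log2 fold change of 1 in either direction. The intervals of Dcp2, Dcp1a, Ddx6 and Xrn1 in cKO and of Xrn1 in dcKO leave out 0.

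In dcKO cortices, Xrn1 was the only one of the 10 genes whose embryos were all on one side of the Ctrl embryos on normalized counts. The others overlapped Ctrl. With the GC correction, Xrn1 overlapped Ctrl and 4 other genes did not (Dcp1a, Dcp2, Ddx6 and Edc3), against 24.9% of all tested genes. By edgeR, 0 of the 10 genes were called, with 0.0% of all tested genes called. The deleted genes Cnot3 and Trp53 missed the threshold too (log2 fold changes -2.11 and -2.27, edgeR adjusted p 0.0529 and 0.0605). DESeq2 and limma voom called 0 of the 10 too, against 8.47% and 26.8% of all tested genes. At a limma voom adjusted p under 0.05 with no limit on the fold there were 4 of the 10, against 52.7%. The smallest edgeR adjusted p of any gene was 0.0502 in the fit of 9 embryos. At an unadjusted p under 0.05 there was 1 gene higher (Xrn1, background 18.0%) and 0 lower (background 11.2%) by edgeR, and 1 by DESeq2 (32.1% of all genes). Not overlapping were 1 gene that was higher (background 15.6%) and 0 that were lower (11.2% of all genes). The comparison uses the same 3 Ctrl embryos as that of cKO. The median log2 fold change was -0.03 over the 10 genes and 0.11 over all tested genes.

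Xrn1 measured 2944, 2564 and 1768 normalized counts in dcKO replicates 1, 2 and 3, against at most 1621 in Ctrl. Replicate 3 was only just above the controls, and the log2 fold change was 0.72 (SE 0.21, 95% interval 0.26 to 1.18). It missed the threshold in edgeR (adjusted p 0.0659) and had a DESeq2 adjusted p of 0.0282 with a log2 fold change of 0.70, where 10.3% of all genes were higher at that p. In the fit of the 6 Ctrl and dcKO embryos the log2 fold change was 0.67 (edgeR adjusted p 0.214). By limma voom it was 0.98 (adjusted p 0.000304), and by edgeR without dcKO replicate 3 it was 0.91 (adjusted p 0.000874), both below a log2 fold change of 1. The replicates that were highest were those with the strongest dependence on GC content. After the GC correction, the dcKO embryos were at 1.24, 0.94 and 1.30 times the Ctrl mean of Xrn1, and the difference was 0.21 (SE 0.15, adjusted p 0.37). The groups then overlapped.

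Dcp2, Ddx6 and Pan3 split the dcKO embryos in the same manner. Dcp2 measured 2549 and 1659 normalized counts in replicates 1 and 3, below every Ctrl embryo, and 6883 in replicate 2, above every Ctrl embryo. Ddx6 measured 8447 and 5835 in replicates 1 and 3 and 18467 in replicate 2, where Ctrl had 11892 to 12012. Pan3 measured 679 and 453 in replicates 1 and 3 and 1555 in replicate 2, where Ctrl had 724 to 790. Replicates 1 and 3 thus lay on the side of the cKO embryos, and the library labelled dcKO replicate 2, which kept more Cnot3 and Trp53 reads, lay opposite. Whether the split is related to those reads was not tested. Such a split around the Ctrl range was found in 3 of the 10 genes and in 12.2% of all tested genes, a count made after the values were seen. The log2 fold changes over the 3 embryos were -0.19 (SE 0.42) for Dcp2, -0.13 (SE 0.34) for Ddx6 and 0.24 (SE 0.38) for Pan3.

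Without dcKO replicate 2, the differences from Ctrl were -1.002 (SE 0.20, adjusted p 0.0132) for Dcp2, -0.74 (SE 0.17, adjusted p 0.0189) for Ddx6 and -0.42 (SE 0.21, adjusted p 0.198) for Pan3. Dcp1a was then at -0.51 (SE 0.13, adjusted p 0.0331). Of these, Dcp2 passed both parts of the threshold by edgeR, so 1 of the 10 genes was called, against 9.72% of all tested genes in that fit. The GC correction by itself brought replicate 2 back to 0.92 times the Ctrl mean for Dcp2 and 0.91 times for Ddx6, but left it at 1.55 times for Pan3. Replicates 1 and 3 were at 0.38 and 0.42 times the Ctrl mean of Dcp2 on that scale, and at 0.45 and 0.51 times that of Ddx6. All 3 dcKO embryos were then below all Ctrl embryos for both genes, with corrected differences of -0.80 (SE 0.28, adjusted p 0.113) and -0.68 (SE 0.22, adjusted p 0.0989) by edgeR.

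Edc4, the one gene in the highest GC quartile, ordered the dcKO embryos differently. It measured 1960 and 985 normalized counts in dcKO replicates 1 and 2, both below Ctrl, and 4691 in replicate 3, above all other embryos. The log2 fold change was -0.03 (SE 0.43), and 0.24 (SE 0.25) after the GC correction, where the embryos were at 1.21, 0.67 and 1.66 times the Ctrl mean. Edc3 measured 2970, 2473 and 2851, of which replicates 1 and 3 exceeded all Ctrl embryos, with a log2 fold change of 0.20 (SE 0.15). Without Ctrl replicate 1 it was 0.11. Corrected for GC content, the 3 dcKO embryos were at 1.29, 1.16 and 1.16 times the Ctrl mean of Edc3 and above every Ctrl embryo (at most 1.07). That difference was 0.27 (SE 0.12, edgeR adjusted p 0.173).

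The other 4 genes were Dcp1a, Dcp1b, Patl1 and Pan2. Dcp1a measured 1370, 1945 and 1422 normalized counts in dcKO. Replicates 1 and 3 were at the level of cKO, replicate 2 was within the Ctrl range, and the log2 fold change was -0.33 (SE 0.18). After the GC correction, the dcKO embryos were at 0.56, 0.81 and 0.74 times the Ctrl mean of Dcp1a, all below the lowest Ctrl embryo at 0.92. That difference was -0.51 (SE 0.15, edgeR adjusted p 0.0836). Dcp1b measured 298, 244 and 383, with a log2 fold change of -0.43 and a 95% interval of -1.06 to 0.19. Patl1 measured 2482, 2530 and 1910, with a log2 fold change of 0.21 (interval -0.17 to 0.60) that became -0.04 with the GC correction. Pan2 measured 2006, 1955 and 2340, with a log2 fold change of -0.03 (interval -0.36 to 0.30). Pan2 kept within 0.91 to 1.095 times the Ctrl mean in all 6 mutant embryos.

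**Figure D5:**
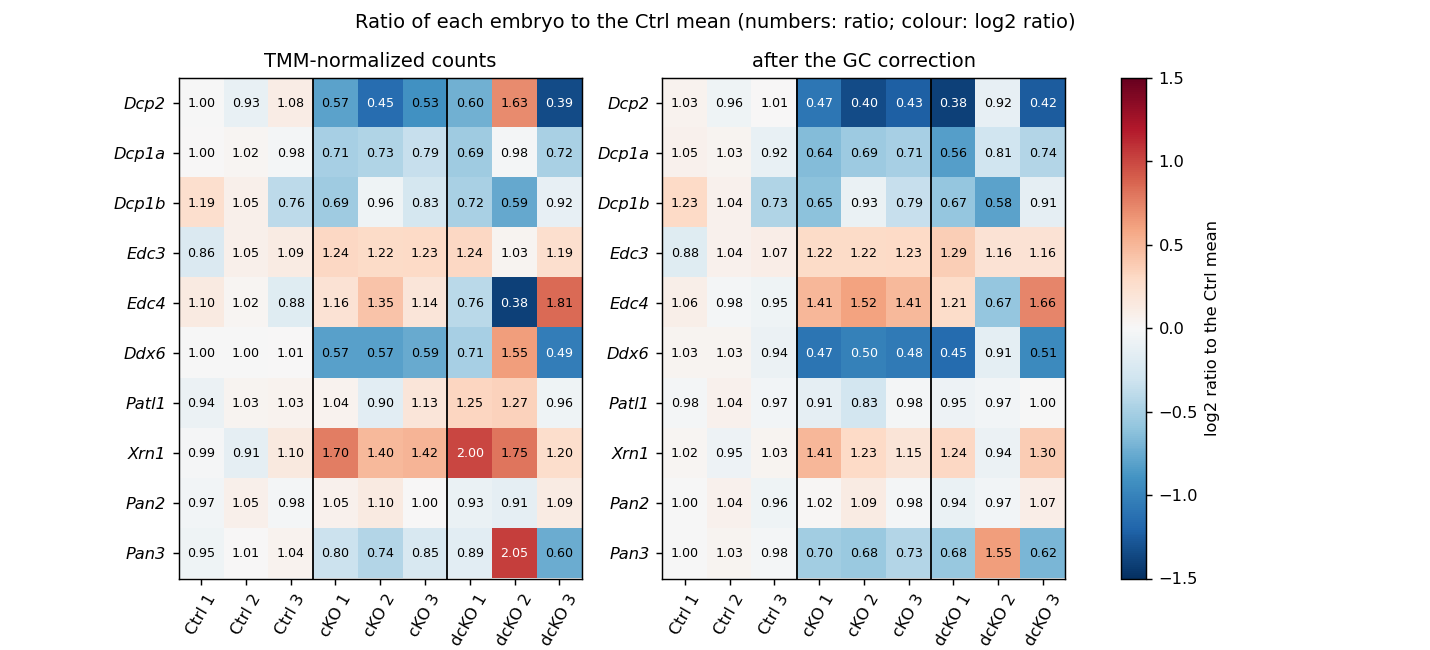
Ratio of each embryo (columns) to the Ctrl mean for the 10 genes (rows), on TMM-normalized counts (left) and after the GC correction (right). Numbers are ratios and colours log2 ratios, blue below and red above the Ctrl mean. Dcp2 and Ddx6 are at 0.45 to 0.59 in cKO on the left and 0.40 to 0.50 on the right, and the dcKO replicate 2 column changes from 1.63 and 1.55 to 0.92 and 0.91.

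Between dcKO and cKO, 0 of the 10 genes were called by edgeR, against 0.0146% of all tested genes, and 0 by DESeq2 and limma voom, against 0.381% and 0.197%. At an unadjusted p under 0.05 there were 0 higher (background 2.05%) and 0 lower (2.38%) by edgeR, with 0 by DESeq2 (5.62% of all genes) and 2 by limma voom (29.8%). Embryos of the 2 genotypes overlapped for every one of the 10, where 2.62% of all genes were separate and higher in dcKO and 3.63% were separate and lower. The intervals were too wide to show that the genotypes were alike. The largest differences were 0.76 for Dcp2 (SE 0.42, 95% interval -0.17 to 1.69) and 0.67 for Ddx6 (SE 0.34, -0.10 to 1.43). Both rested on dcKO replicate 2, and without it they were -0.06 and 0.05. With the GC correction they were 0.41 and 0.38. For Xrn1 the difference was 0.13 (interval -0.33 to 0.59), or -0.12 with the GC correction, and for Pan2 -0.10 (interval -0.43 to 0.23).

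The partners of these factors were read from 6 lists of 53 genes, of which 51 were tested (Patl2 and Exosc6 were not). In cKO, edgeR called 0 of the 51 (0.0146% of all tested genes). At an unadjusted p under 0.05, 10 of the 51 were higher and 5 lower, against 15.3% and 11.7% of all tested genes. In dcKO it called 0 (0.0% of all genes), and at that p 15 were higher and 5 lower, against 18.0% and 11.2%. In the 6 embryos of the cKO comparison, 17 were higher and 16 lower at an adjusted p under 0.05, against 24.0% and 24.2%. Differences below are log2 fold changes from the fit of all 9 embryos, without the GC correction.

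The LSM1-7 ring, which binds oligoadenylated 3′ ends, had 7 tested genes with a median of -0.37 in cKO and -0.16 in dcKO. Lsm4 was at -1.21 (SE 0.45, edgeR adjusted p 0.125) in cKO and -1.34 (SE 0.46, adjusted p 0.0935) in dcKO. The dcKO embryos measured 288, 427 and 1234 normalized counts of Lsm4, and replicate 3 was close to the lowest Ctrl embryo, at 1285. Lsm6 was at -0.62 in cKO and Lsm2 at -0.38 in dcKO. Other enzymes and cofactors of decapping and 5′-3′ decay (11 genes) had medians of 0.44 and 0.35, the highest of the 6 lists, against 0.01 and 0.11 over all genes. In cKO, 6 of them were higher and 2 lower at an unadjusted p under 0.05, where 15.3% and 11.7% of all tested genes were. Pnrc1, a cofactor of decapping, was at 0.77 (SE 0.21, adjusted p 0.0615) in cKO, and Limd1, a LIM-domain protein of P-bodies, at -0.88 (SE 0.20, adjusted p 0.0514). In dcKO the relative of Pnrc1, Pnrc2, was at 1.07 (SE 0.21) and the decapping enzyme Nudt12 at 1.70 (SE 0.33), both with an adjusted p of 0.0502 by edgeR. The dcKO embryos measured 9704, 6916 and 5338 normalized counts of Pnrc2 and 767, 379 and 466 of Nudt12. The highest Ctrl values were 3627 and 207.

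Partners of DDX6 and 4E proteins in translational repression (6 genes) had medians of -0.16 and -0.08. Gigyf1, a repressor that works with 4EHP, was at -1.58 (SE 0.41, edgeR adjusted p 0.0585) in cKO, and Lsm14b at -0.39. Lsm14a and Gigyf2 were at 0.43 and 0.36 in dcKO. Poly(A)-binding proteins and their partners (6 genes) had medians of -0.39 and -0.06. Pabpc4 was at -0.94 (SE 0.21, adjusted p 0.0509) in cKO and -0.77 (adjusted p 0.058) in dcKO. Paip1 was at 0.43 in cKO and Paip2, which restrains PABPC, at 0.80 (edgeR adjusted p 0.0566) in dcKO. The dcKO embryos measured 9358, 9507 and 5424 normalized counts of Paip2, against at most 4737 in Ctrl. Of 5 deadenylases outside CCR4-NOT and PAN2-PAN3, Parn was at 0.60 (edgeR adjusted p 0.143) in cKO and 0.65 (0.109) in dcKO. Pde12 was at -0.19 in cKO and Toe1 at -0.19 in dcKO, and the list's medians were 0.07 and 0.05. The exosome, DIS3 family and SKI complex, which degrade RNA from the 3′ end, had 16 tested genes with medians of 0.16 and 0.24. Exosc8 was at 0.39 and the SKI subunit Skic8 at 0.40 in cKO, and Exosc9 at 0.57 and Skic8 at 0.48 in dcKO. The dcKO embryos measured 2327, 2260 and 1551 normalized counts of Exosc9, against at most 1472 in Ctrl.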

How the data were processed

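Cortical RNA from single E12.5 embryos was sequenced from stranded poly(A) libraries (3 Ctrl, 3 cKO, 3 dcKO). Per the paper's methods, the authors trimmed adapters, aligned paired-end reads to mm39 with STAR and assigned them to genes with featureCounts. The deposited values are raw counts per gene, with no normalization. The annotation release and strand setting are not given in the sources used here.

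Counts were tested in R 4.3.3 with edgeR 4.0.16 (TMM factors, quasi-likelihood test) in 1 model of all 9 embryos, over the 13680 genes above 10 reads in each embryo. P-values were adjusted by the Benjamini-Hochberg method over all of them. The thresholds are those of the study, which used DESeq2. Standard errors are the log2 fold change divided by the square root of F. Alternatives tried were upper-quartile and RLE factors, DESeq2 1.42.0, limma 3.58.1 voom with quality weights, other filters, the 6 embryos compared, each embryo left out, blocks for replicate or code number, and a correction for GC content (loess, span 0.3, over 13561 genes with a value). Code numbers are those in the sample descriptions, and their meaning is not given. The 10 genes, lists and tests were chosen with earlier results of these data known. All 10 genes are named, with Cnot3 and Trp53 as checks of the labels and, of each list, the 2 genes with the smallest p in cKO and in dcKO against Ctrl. Of the marker lists, 1 subpallial gene is not reported here. Coordinates, GC content and exon lengths came from GENCODE M21 on GRCm38 and promoter windows from RefSeq, which held none for Dcp2 and Ddx6. Scripts used Python 3.11.15, and the fit was tested on simulated data. Replicates are separate embryos, and intervals cover the spread between them.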

Additional observations from a re-analysis of the deposited data

How the results depend on the processing

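Of 600 log2 fold changes of single genes under the alternatives, 546 kept their direction and side of the threshold, 47 changed sign and 7 passed it newly. In cKO the sign changed for 1 gene only, Patl1 (-0.0296 without the filter, -0.0302 with filterByExpr, -0.14 with the GC correction, -0.14 with the replicate block and GC correction, and -0.0606 to 0.118 with an embryo left out). The cause of these changes was not tested. The 10 genes had at least 281 reads in every embryo. Percentages in brackets are shares of all tested genes by the same rule.

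Counts of called genes rose from 0 in these settings. In cKO they were 2 with the GC correction (4.47%), but 0 with the replicate block added to it (0.0219%). Chosen after seeing the data, they were 7 in the fit of 6 embryos at any fold change (48.2%). With any embryo left out they stayed at 0 (0.0% to 10.8%, the highest without dcKO replicate 3), or were 0 to 4 at any fold change (3 without dcKO replicate 2, against 18.5%, and 4 without dcKO replicate 3, against 29.7%). In dcKO they were 1 at adjusted p under 0.1 with a log2 fold change beyond 0.5 (16.6%), 3 with the code number block (11.9%), which rests on dcKO replicate 3 and Ctrl replicate 3 alone because the other dcKO embryos share no code number, 0 to 1 with an embryo left out (1 without dcKO replicate 2, against 9.72%) and 0 to 3 at any fold change (3 without dcKO replicate 2, against 18.1%). Between dcKO and cKO they were 0 to 2 with an embryo left out and 0 to 4 at any fold change, the highest without dcKO replicate 3 (9.04% and 26.6%).

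At an unadjusted p under 0.05, cKO gave 2 genes with upper-quartile factors (28.0%), 7 with voom (60.03%), 7 in the 6 embryos (54.9%) and 0 to 5 with an embryo left out (16.9% to 42.8%), where leaving out Ctrl replicate 2 or cKO replicate 1 gave 0 (17.5% and 18.1%). In dcKO there were 4 with voom (58.5%), 2 with filterByExpr (25.1%), 5 with the code number block (40.2%), 4 with the GC correction (26.2%), 3 with the replicate block and GC correction (22.2%), and 1 to 4 with an embryo left out (4 without dcKO replicate 2, against 34.5%, and 4 without dcKO replicate 3, against 56.3%). Between dcKO and cKO there were 2 with voom (29.8%), 2 without the filter (4.33%), 3 with the code number block (32.6%) and 0 to 5 with an embryo left out (5 without dcKO replicate 3, against 41.2%). Genes whose embryos did not overlap numbered 2 with RLE or upper-quartile factors (26.8% and 26.5%), 3 with no factor (26.7%) and 4 with the GC correction (24.9%) in dcKO, and 1 with upper-quartile factors between dcKO and cKO (7.04%).

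Replicate numbers come from the labels and do not pair the embryos. Deviations of same-numbered embryos correlated from -0.54 to 0.13, and an embryo correlated best with its own number in 2 of 18 cases. With the replicate block, 0 genes were called in each comparison, and 2 of the 10 in cKO had an unadjusted p under 0.05 (21.7%).

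Signs in dcKO against Ctrl changed as follows. With the code number block, whose values for dcKO come from 1 dcKO embryo (replicate 3) and are no test of the group, the log2 fold change was 0.28 for Dcp1b, 1.04 for Edc4, 0.16 for Pan2, -0.80 for Pan3 and -0.11 for Patl1. With the GC correction it was 0.24 for Edc4, -0.0745 for Pan3 and -0.0379 for Patl1, and with the replicate block added 0.18, -0.16 and -0.0388. Edc4 was at 0.0149 with upper-quartile factors and Pan3 at -0.0855 with voom. With an embryo left out, Dcp2 ranged from -1.002 to 0.16, Ddx6 from -0.74 to 0.17, Edc4 from -0.82 to 0.36, Pan2 from -0.12 to 0.0157 and Pan3 from -0.42 to 0.56. Leaving out dcKO replicate 2 gave the lowest values of Dcp2, Ddx6 and Pan3.

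Between dcKO and cKO, the code number block, again with 1 dcKO embryo, gave -0.0310 for Dcp1a, 0.60 for Dcp1b, -0.48 for Dcp2, -0.26 for Ddx6, 0.81 for Edc4, 0.10 for Pan2, -0.50 for Pan3, -0.14 for Patl1 and -0.45 for Xrn1. Dcp1a was at -0.00156 with upper-quartile factors and -0.0402 with voom, and Xrn1 at -0.12 with the GC correction and -0.13 with the replicate block added. With an embryo left out, Dcp1a ranged from -0.0791 to 0.19, Dcp2 from -0.0560 to 1.11, Edc4 from -1.10 to 0.0752, Pan3 from -0.0933 to 0.89 and Xrn1 from -0.0317 to 0.31.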
